A study of Mus musculus with 6 samples.

Results

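The genes described here encode the machinery that makes and displays peptides on MHC class I molecules. They are 10 genes taken by symbol from the 23358 entries of the deposited gene count table: the heavy chains H2-K1 and H2-D1, the light chain B2m, the peptide transporter subunits Tap1 and Tap2, the loading factor Tapbp, the inducible proteasome subunits Psmb8, Psmb9 and Psmb10, and the transactivator Nlrc5. All 10 were present once in the table and all 10 were abundant enough to test. The measurements are RNA-seq read counts from total RNA of mouse calvaria (the roof of the skull) at an age of 2 to 3 days. There were 6 libraries, 3 labelled wild type (WT, Ezh2_WT_Osx) and 3 labelled Ezh2 conditional knockout (cKO, Ezh2_cKO-Osx), Ezh2 being the histone methyltransferase of Polycomb repressive complex PRC2. Osx, now called Sp7, encodes a factor that osteoblasts need to form, and the name stands in the labels of both groups. The sources used here give neither the mouse strain nor whether the WT animals carry a recombinase. Each bone was briefly digested with collagenase and trypsin and then frozen, so what was sequenced is tissue of mixed cell types left after digestion, and in such bulk tissue fewer cells of a type and less RNA per cell cannot be told apart. Libraries are called by their group and the number in their label (WT 14, WT 27, WT 29, cKO 8, cKO 10, cKO 37).

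Class I molecules are carried by nearly all nucleated cells. Proteasomes cut cytosolic proteins into peptides, the transporter formed by Tap1 and Tap2 moves the peptides into the endoplasmic reticulum, and tapasin, the product of Tapbp, holds empty class I molecules at the transporter until a peptide is bound. The heavy chain reaches the cell surface together with beta-2 microglobulin, the product of B2m, and the complex is read by CD8 T cells and natural killer cells. Interferons raise the transcription of these genes, through IRF factors and through NLRC5, which acts on class I promoters together with the RFX complex. In cells exposed to interferon, Psmb8, Psmb9 and Psmb10 take the places of the catalytic subunits Psmb5, Psmb6 and Psmb7 in the immunoproteasome.

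The stretches of DNA just before the transcription starts of 5 of the genes are shown. This was done because 4 of these genes (H2-K1, H2-D1, B2m and Tap1) rose. A further reason is that the stretches contain the letters of motifs through which class I genes are known to be switched on. Stretches picked in this way cannot show whether such motifs go with a rise, and that was not tested. They come from RefSeq promoter windows of GRCm38.p6, the build of the deposited coordinates (mm10), each window reaching from 250 bases before to 50 bases after a start. Of the 10 genes, 8 had a window (H2-K1, H2-D1, B2m, Tap1, Tapbp, Psmb8, Psmb9 and Psmb10). Capitals mark matches, on either strand, to 4 motifs: the interferon-stimulated response element (GAAA, any 2 bases, GAAA), the gamma-activated site (TTC, any 3 bases, GAA), the NF-kappaB consensus, and the core of the cyclic AMP response element (TGACG). The H2-K1 stretch is on the minus strand at chr17:34000377-34000483, the H2-D1 stretch on the plus strand at chr17:35262898-35263004, the B2m stretch on the plus strand at chr2:122147537-122147626, and the last on the plus strand at chr17:34187331-34187555, which is the whole interval between Psmb9 and Tap1.
H2-K1: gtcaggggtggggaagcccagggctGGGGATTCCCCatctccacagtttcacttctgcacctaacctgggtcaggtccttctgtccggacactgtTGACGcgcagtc
H2-D1: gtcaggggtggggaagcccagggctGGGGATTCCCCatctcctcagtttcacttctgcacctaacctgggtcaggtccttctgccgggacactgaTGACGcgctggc
B2m: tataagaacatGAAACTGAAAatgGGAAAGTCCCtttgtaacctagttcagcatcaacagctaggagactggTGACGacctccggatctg
Psmb9 and Tap1: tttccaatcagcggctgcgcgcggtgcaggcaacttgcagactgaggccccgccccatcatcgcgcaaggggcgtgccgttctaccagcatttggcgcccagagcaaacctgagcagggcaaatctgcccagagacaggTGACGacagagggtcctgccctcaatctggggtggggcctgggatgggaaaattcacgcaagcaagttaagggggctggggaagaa

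Laid against each other without gaps, the H2-K1 and H2-D1 stretches were identical at 101 of 107 bases (94.4%). Both hold a pair of overlapping NF-kappaB matches, which begin at -125 in H2-K1 and at -171 in H2-D1, and a TGACG that begins 70 bases further on, counting from the start of transcription in each gene. H2-K1 has 2 annotated starts, 14 bases apart, and its positions are counted from the one with the larger distance. The B2m stretch holds a response element match at -139, an NF-kappaB match at -126 and a TGACG at -78. Psmb9 and Tap1 are transcribed away from each other from the 225 bases between them, which hold a single TGACG. Psmb8 has a gamma-activated site match at -97, and the windows of Tapbp and Psmb10 held none of the 4 motifs. Among all 32851 promoter windows of this length, 3.44% held the response element, 8.3% the gamma-activated site, 4.51% the NF-kappaB consensus and 20.8% the TGACG core. Of the 8 genes here, 1, 1, 3 and 5 did, in the same order, counted by gene and not by window. The TGACG shared by Psmb9 and Tap1 counts for both. Only these exact patterns were searched, so bases without capitals may still hold variants of the elements. These matches describe letters in the reference sequence and not binding in calvaria.

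The gene counts summed to between 60449016 and 95439578 per library, and 18108 to 18427 genes had a count. Ezh2 lay between 19.2 and 21.7 CPM (counts scaled to library size with TMM factors) in all 6 libraries. It did not pass the test (log2 fold change -0.07, adjusted p = 0.507). The labels do not say which part of the gene is deleted, so this level does not check them, and each direction below rests on the labels. Osteoblast genes were abundant in every library, with a summed level of 73800 to 103000 CPM over 6 markers in WT and 46700 to 70300 CPM in cKO. Nearly all of that sum was the collagen gene Col1a1 (71900 to 99700 CPM in WT and 44400 to 67900 CPM in cKO, adjusted p = 0.115). Of the 6 markers, 1 had a log2 fold change above 0, the bone matrix gene Ibsp (1.27-fold higher with no overlap, adjusted p = 0.0745). Alpl was at 0.681 times WT (adjusted p = 0.39), Runx2 at 0.929 and Bglap at 0.94, each with overlap. Sp7 itself fell (log2 -0.37 ± 0.09, adjusted p = 0.0211). The Sp7 call was lost with the GC and length offset (0.0545) and without WT 29, cKO 8, cKO 10 or cKO 37 (0.0518 to 0.0789). The library cKO 37 stood apart in cartilage genes: 4 chondrocyte markers summed to 686 CPM there, against 5357 and 5957 CPM in the other cKO libraries and 2080 to 7530 CPM in WT. Nothing in the labels says that the libraries came from separate animals, and each p-value therefore refers only to the spread among these 6 libraries, and some of it may be technical.

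The transactivator, the heavy and light chains and 1 of the transporter subunits were higher in the cKO libraries. With an adjusted p under 0.05 (edgeR quasi-likelihood test, Benjamini-Hochberg adjustment over 16089 genes), 5 of the 10 rose: Nlrc5, H2-K1, H2-D1, B2m and Tap1. None fell, and Tap2, Tapbp, Psmb8, Psmb9 and Psmb10 did not pass. Among all tested genes 12.4% passed, 5.96% higher and 6.45% lower, and this balance depends on the scaling (1191 higher and 764 lower with upper-quartile factors, against 959 and 1038). An unadjusted p under 0.05 was found for 4675 of the 16089 genes. DESeq2 called 1217 genes higher and 1389 lower, and limma voom 906 and 914. The median log2 fold change, cKO over WT, was 0.417 over the 10 genes and 0.00735 over all tested genes. For 6 of the 10 all cKO libraries were above all WT libraries, which was the case for 17.2% of all tested genes.

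These calls rested on single libraries to different degrees. Leaving out 1 library gave 3 risen genes without WT 14, 8 without WT 27, 2 without WT 29, 1 without cKO 8, and 4 without either cKO 10 or cKO 37. B2m passed in all 6 of these fits. The median log2 fold change of the 10 genes lay between 0.363 (without cKO 37) and 0.488 (without WT 27). Single genes moved more in these fits: the log2 fold change ran from 0.36 to 0.71 for Psmb8, from 0.35 to 0.79 for Psmb9, from 0.30 to 0.51 for Tap1, from 0.12 to 0.30 for Tap2 and from -0.13 to 0.28 for Psmb10.

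**Figure D1:**
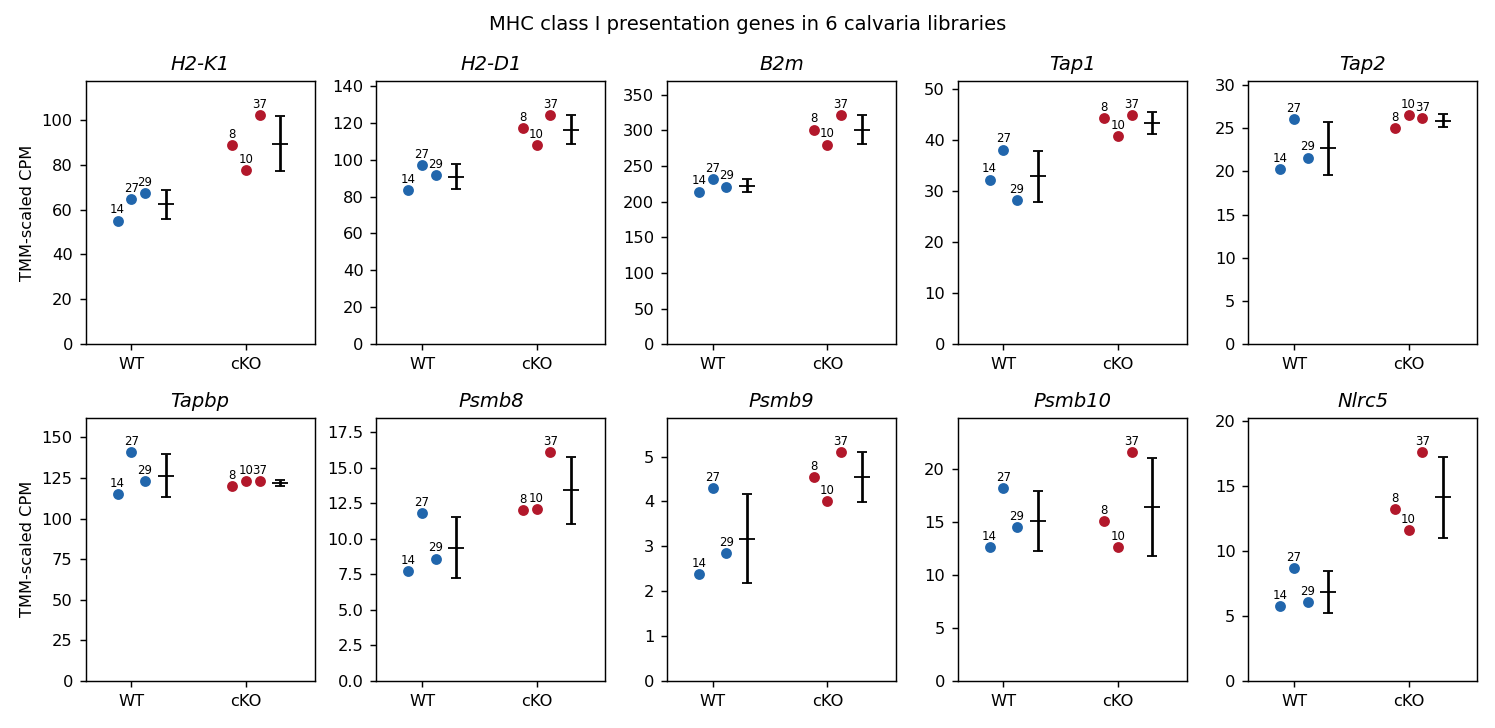
TMM-scaled CPM (vertical axes, each from 0) of the 10 class I presentation genes in WT libraries (blue) and cKO libraries (red), with the library number above each point; the horizontal mark and bar are the group mean and SD (n = 3). In Nlrc5 the WT points lie between 5.77 and 8.67 and the cKO points between 11.6 and 17.6, whereas in Tapbp the cKO points, from 120 to 123, lie within the WT range.

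Nlrc5 (chromosome 8, 94472763 to 94527272), the transactivator of class I genes, showed the largest fold change of the 10. Its level was 5.77, 8.67 and 6.05 CPM in WT 14, WT 27 and WT 29, and 13.2, 11.6 and 17.6 CPM in cKO 8, cKO 10 and cKO 37. The lowest cKO library was above the highest WT library, and the spread within cKO was wide. The means were 6.83 ± 1.6 and 14.1 ± 3.07 CPM (SD, n = 3 per group), a 2.07-fold rise (log2 1.05 ± 0.20, SE, 95% confidence interval 0.58 to 1.52, adjusted p = 0.0182). The call was lost without WT 14 (adjusted p = 0.0517), WT 29 (0.068) or cKO 8 (0.0594), with log2 fold changes of 0.86 to 1.25 over the 6 fits that leave out a library. Counts of Nlrc5 ran from 422 to 1350 per library.

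Both classical heavy chain genes rose. H2-K1 (chromosome 17, 33996012 to 34000333), which encodes the K molecule, was at 55.1, 64.5 and 67.5 CPM in WT 14, WT 27 and WT 29 and at 88.7, 77.5 and 102 CPM in cKO 8, cKO 10 and cKO 37. The groups did not overlap, and the 1.43-fold difference (log2 0.52 ± 0.11, 95% confidence interval 0.27 to 0.77, adjusted p = 0.0202) was lost without cKO 8 (0.0735). H2-D1 (chromosome 17, 35263094 to 35267497), which encodes the D molecule, was at 83.5, 97.2 and 91.5 CPM in WT and at 117, 108 and 124 CPM in cKO, in the same order of libraries. Here too the groups were apart, by 1.28-fold (log2 0.36 ± 0.07, 95% confidence interval 0.20 to 0.52, adjusted p = 0.0125), and the call was lost without WT 29 (0.0508) or cKO 8 (0.058). Class I heavy chain genes are close in sequence to each other, as their promoters are. Reads that match more than 1 of them may have been dropped or assigned to the wrong gene. The values of each heavy chain gene are uncertain to that extent.

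B2m (chromosome 2, 122147687 to 122153082), the light chain shared by all these molecules, lies outside the MHC and has no near copy among the class I heavy chains. It was the most abundant of the 10, at 214, 232 and 221 CPM in WT 14, WT 27 and WT 29 and 301, 280 and 321 CPM in cKO 8, cKO 10 and cKO 37. All cKO libraries were above all WT libraries with little spread in either group. The means were 222 ± 9.22 and 301 ± 20.6 CPM, 1.35-fold (log2 0.44 ± 0.07, 95% confidence interval 0.28 to 0.59, adjusted p = 0.00495). Without 1 library the adjusted p lay between 0.00739 and 0.0307.

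In the peptide transporter, Tap1 rose and the value of Tap2 did not pass. Tap1 (chromosome 17, 34187556 to 34197225) was at 32.3, 38.2 and 28.3 CPM in WT 14, WT 27 and WT 29 and at 44.3, 40.9 and 44.9 CPM in cKO 8, cKO 10 and cKO 37, a 1.32-fold difference with no overlap (log2 0.40 ± 0.10, 95% confidence interval 0.18 to 0.62, adjusted p = 0.0304). This was the least stable of the 5 calls: it passed without WT 27 (adjusted p = 0.00709) and was lost when any other library was left out (0.056 to 0.114). Tap2 (chromosome 17, 34204479 to 34216321) was at 20.3, 26.1 and 21.6 CPM in WT and 25, 26.5 and 26.2 CPM in cKO. Its WT 27 value lay among the cKO values, and the log2 fold change was 0.19 ± 0.09 (95% confidence interval -0.01 to 0.39, adjusted p = 0.186). It passed without WT 27 (0.0428) and with the offset for GC content and length (0.0466). The ratio of Tap1 to Tap2 did not separate the groups, as given with the other ratios below.

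Tapbp (chromosome 17, 33919478 to 33929290), the gene of tapasin, was at 115, 141 and 123 CPM in WT 14, WT 27 and WT 29 and at 120, 123 and 123 CPM in cKO 8, cKO 10 and cKO 37. The cKO libraries were close together inside the WT range. Its log2 fold change was -0.05 ± 0.07 (adjusted p = 0.704), and the 95% confidence interval of -0.21 to 0.11 does not reach the values measured for H2-K1, H2-D1, B2m or Tap1. The sign of the Tapbp value turned without WT 27 (0.03) and with the GC and length offset (0.04).

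Of the other genes of peptide loading, none rose and a pair of chaperone genes fell. Of 6 tested partners (Calr, Canx, Pdia3, Hspa5, Tapbpl and Erap1), 0 rose and 2 fell, against 5.96% and 6.45% of all tested genes. An unadjusted p under 0.05 was found for 3, and DESeq2 and limma voom called 3 and 2. The median of the 6 was -0.183 on the log2 scale. Calr, encoding the chaperone calreticulin that binds class I molecules before they are loaded, fell from 761 ± 61.4 to 544 ± 85 CPM (log2 -0.49 ± 0.11, adjusted p = 0.0216). It was lost without WT 27 (0.071), WT 29 (0.0557) or cKO 8 (0.0801). Hspa5, the general chaperone of the endoplasmic reticulum, fell from 687 ± 40.3 to 492 ± 16.7 CPM (log2 -0.48 ± 0.08, adjusted p = 0.00491), and its call held without each library. The values of the disulfide isomerase gene Pdia3, a part of the loading complex (-0.22 ± 0.09, adjusted p = 0.123), and of the peptide-trimming enzyme gene Erap1 (0.18 ± 0.08, adjusted p = 0.183) did not pass. Erap1 was nevertheless higher in each cKO library (26.9, 26.7 and 33.1 CPM) than in each WT library (25.6, 25.3 and 25.7 CPM). It was the only partner of the 6 with this order, which 17.2% of all tested genes had. For 4 of the 6 (Hspa5, Calr, Pdia3 and Canx) all cKO libraries were below all WT libraries, against 17.4% of all tested genes. Canx was at 0.903 times WT (log2 -0.15 ± 0.07, adjusted p = 0.187). Tapbpl, encoding a relative of tapasin, had a log2 fold change of 0.08 ± 0.13 (adjusted p = 0.754).

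The 3 immunoproteasome genes did not pass the test, with wide intervals. Psmb8 (chromosome 17, 34198195 to 34201454), the inducible chymotrypsin-like subunit, was at 7.74, 11.8 and 8.61 CPM in WT 14, WT 27 and WT 29 and at 12, 12.1 and 16.1 CPM in cKO 8, cKO 10 and cKO 37. The groups did not overlap, but WT 27 lay just under cKO 8 and cKO 10. Its log2 fold change was 0.52 ± 0.18 (95% confidence interval 0.11 to 0.93, adjusted p = 0.0974), and it passed with DESeq2 (0.0144) and without WT 27 (0.0207).

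Psmb9 (chromosome 17, 34182099 to 34187330), the inducible counterpart of Psmb6, was at 2.38, 4.29 and 2.85 CPM in WT 14, WT 27 and WT 29 and at 4.54, 4 and 5.1 CPM in cKO 8, cKO 10 and cKO 37. WT 27 exceeded cKO 10, so the groups overlapped. The log2 fold change was 0.52 ± 0.21 (95% confidence interval 0.06 to 0.98, adjusted p = 0.123), and it passed without WT 27 (0.0269). Its counts, 174 to 392 per library, were the lowest of the 10.

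Psmb10 (chromosome 8, 105935728 to 105938392), the inducible trypsin-like subunit, was at 12.6, 18.2 and 14.5 CPM in WT 14, WT 27 and WT 29 and at 15.1, 12.6 and 21.6 CPM in cKO 8, cKO 10 and cKO 37. The highest value, in cKO 37, was from the same group as one of the lowest, in cKO 10, and the groups overlapped fully. The log2 fold change was 0.13 ± 0.23 (95% confidence interval -0.44 to 0.70, adjusted p = 0.77), an interval that holds both no change and the size seen in Psmb8 and Psmb9. Without cKO 37 its sign turned (-0.13).

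Of the 10 genes, 7 lie on chromosome 17, which carries the mouse MHC. Psmb9, Tap1, Psmb8 and Tap2 follow each other within 34223 bases, with 225, 969 and 3024 bases between neighbours. None of these 4 genes overlaps the next in the deposited coordinates. B2m, Nlrc5 and Psmb10 lie on chromosomes 2 and 8.

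**Figure D2:**
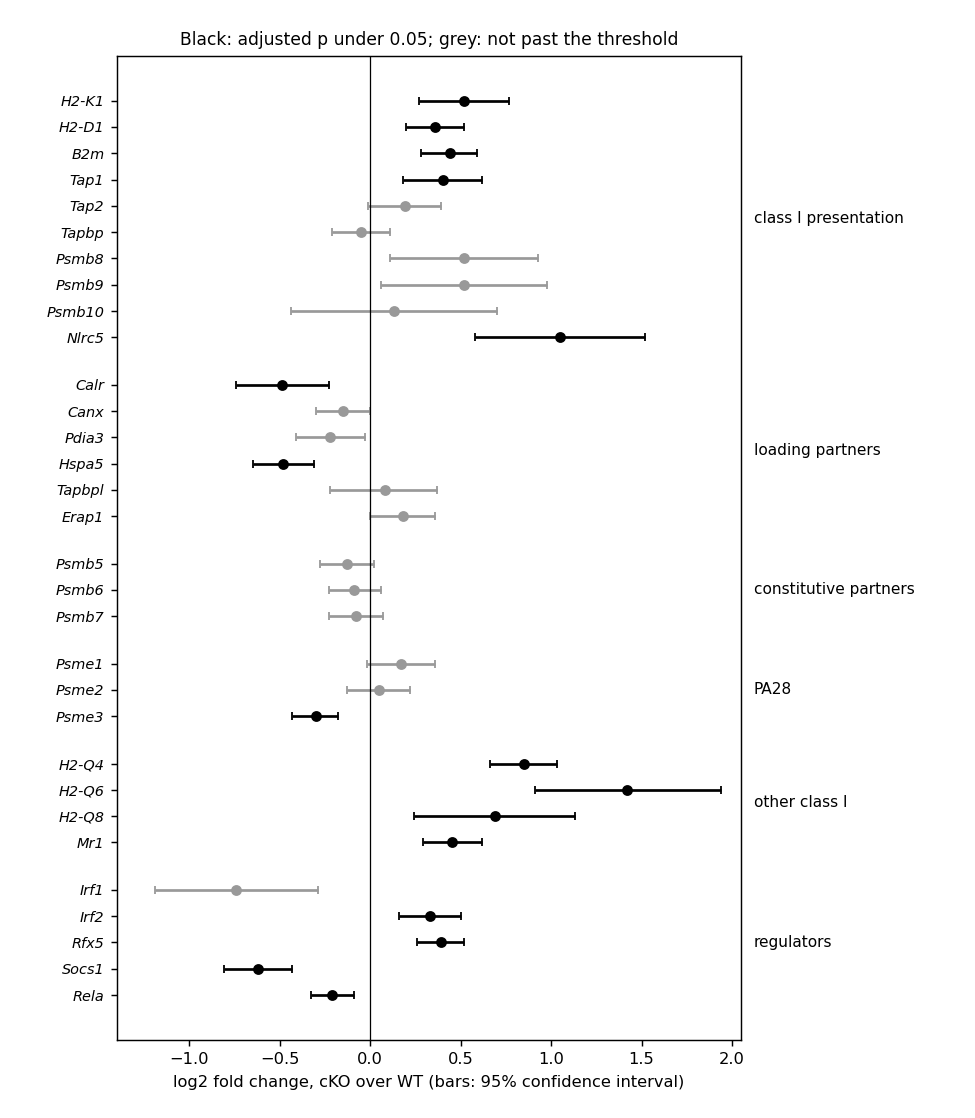
Log2 fold change, cKO over WT, with its 95% confidence interval for the 10 class I presentation genes and for genes of the same pathway grouped by role; black marks an adjusted p under 0.05 (edgeR, n = 3 libraries per group). The intervals of Nlrc5 (0.58 to 1.52) and H2-Q4 (0.66 to 1.03) lie right of 0 and those of Calr (-0.74 to -0.23) and Socs1 (-0.81 to -0.43) left of it.

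Compared per length, B2m was far above the rest. In WT its level, in TMM-scaled CPM per kilobase, was 259 ± 10.7 (SD, n = 3), followed by H2-D1 at 52.3 ± 3.95, Tapbp at 45.9 ± 4.81 and H2-K1 at 37.9 ± 3.93. Psmb10 (11.9 ± 2.24), Tap1 (11.2 ± 1.69), Tap2 (9.11 ± 1.23) and Psmb8 (7.68 ± 1.76) came next, and each of these overlapped its neighbour in the order. Psmb9 (3.94 ± 1.24) and Nlrc5 (0.983 ± 0.231) were lowest and did not overlap any neighbour, while H2-D1 and Tapbp overlapped. In cKO the order differed in that H2-K1 (54.4 ± 7.56) stood above Tapbp (44.3 ± 0.51) with no overlap and overlapped H2-D1 (67.1 ± 4.76), Tap1 (14.7 ± 0.721) above Psmb10 (13 ± 3.67) with overlap, and Psmb8 (11 ± 1.91) above Tap2 (10.4 ± 0.319) with overlap.

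How the genes moved against each other was read from 6 ratios of length-scaled levels within each library, tested with an exact two-sided permutation test over the libraries, which with 3 against 3 cannot go below p = 0.1. B2m stood to the sum of H2-K1 and H2-D1 at 3.05, 2.84 and 2.75 in WT 14, WT 27 and WT 29 and at 2.89, 2.98 and 2.79 in cKO 8, cKO 10 and cKO 37 (exact p = 1, adjusted over the 6 ratios 1). Light chain and heavy chain transcripts thus had nearly the same mean proportion in both groups, 2.88 ± 0.155 and 2.89 ± 0.0945 (SD, n = 3). The ratio of H2-K1 to H2-D1 was 0.725 ± 0.0464 in WT and 0.808 ± 0.0558 in cKO and overlapped between the groups. Tap1 stood to Tap2 at 1.34, 1.23 and 1.1 in WT and at 1.49, 1.3 and 1.45 in cKO, also with overlap. Both of these had an exact permutation p of 0.2 (adjusted 0.3).

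The inducible subunits made up a small part of the catalytic pairs in every library. Psmb8 stood to its constitutive partner Psmb5 at 0.11, 0.158 and 0.125 in WT 14, WT 27 and WT 29 and at 0.2, 0.183 and 0.233 in cKO 8, cKO 10 and cKO 37. Psmb9 stood to Psmb6 at 0.0466, 0.0778 and 0.0526 in WT and at 0.0933, 0.0831 and 0.0941 in cKO. In both pairs every cKO library was above every WT library, with differences of 0.66 and 0.65 on the log2 scale, and both gave the smallest exact permutation p the design allows (0.1, adjusted 0.3). For Psmb10 against Psmb7 the ratio was 0.185 ± 0.0292 in WT and 0.211 ± 0.0421 in cKO and the groups overlapped (exact permutation p = 0.5, adjusted 0.6).

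**Figure D3:**
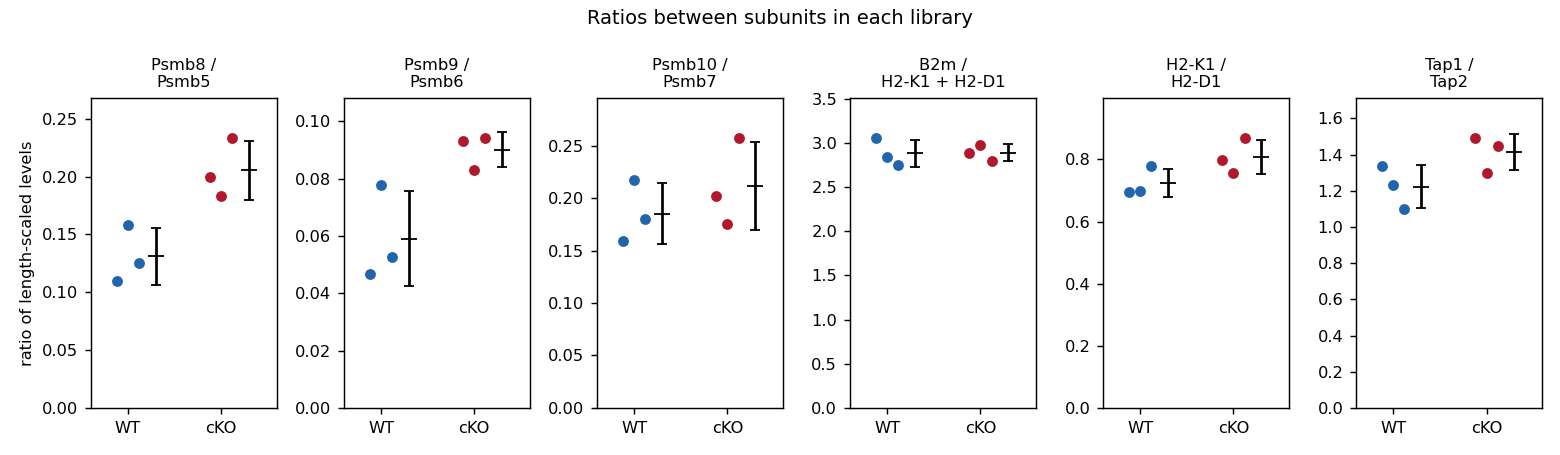
Ratios of length-scaled levels within each library (vertical axes, each from 0) for 6 pairs, with WT in blue, cKO in red and the group mean and SD beside the points (n = 3). Points of Psmb8 over Psmb5 run from 0.11 to 0.158 in WT and from 0.183 to 0.233 in cKO, whereas those of B2m over the heavy chains lie between 2.75 and 3.05 in all 6 libraries.

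No gene of the constitutive proteasome core passed. Of its 14 core subunit genes outside the immunoproteasome, edgeR called 0, against 12.4% of all tested genes. An unadjusted p under 0.05 was found for 1, and DESeq2 and limma voom also called 0. Their median log2 fold change was -0.0823. Psmb5 (-0.13 ± 0.07, adjusted p = 0.23), Psmb6 (-0.09 ± 0.07, adjusted p = 0.421) and Psmb7 (-0.08 ± 0.07, adjusted p = 0.498), the partners of the 3 inducible subunits, had values slightly under 0. Among 7 activator and assembly genes 1 fell, against 6.45% of all tested genes. This was Psme3, encoding the nuclear PA28 gamma activator, from 62.5 ± 2.21 to 50.6 ± 1.33 CPM (log2 -0.30 ± 0.06, adjusted p = 0.00937, and 0.0532 without cKO 8). Psme1 (0.17 ± 0.09, adjusted p = 0.216) and Psme2 (chosen after its value was seen, 0.05 ± 0.08, adjusted p = 0.745), encoding the interferon-inducible activator that caps the immunoproteasome, did not pass.

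Further class I heavy chain genes rose. From 26 other class I and class I-like genes that were looked up, 24 had an entry and 17 were abundant enough to test. Of these 17, 4 rose and 0 fell, against 5.96% and 6.45% of all tested genes (3 to 5 rose when a library was left out). Their median log2 fold change was 0.454. For 9 of the 17 all cKO libraries were above all WT libraries, against 17.2% of all tested genes. H2-Q4, of the Q region, was at 12.4, 13.3 and 14.5 CPM in WT 14, WT 27 and WT 29 and at 25.5, 21.9 and 24.8 CPM in cKO 8, cKO 10 and cKO 37 (1.8-fold, log2 0.85 ± 0.09, adjusted p = 0.000831). H2-Q6 was scarce, at 0.597 ± 0.0682 and 1.61 ± 0.274 CPM (log2 1.42 ± 0.23, adjusted p = 0.00553). Mr1, whose product presents vitamin B metabolites to invariant T cells and which lies outside the MHC, rose from 14.4 ± 0.725 to 19.7 ± 0.804 CPM (log2 0.45 ± 0.07, adjusted p = 0.00563). H2-Q8 (log2 0.69 ± 0.20, adjusted p = 0.0473) was lost when any library but cKO 10 was left out (0.0703 to 0.185), in limma voom (0.0679) and under the offset for GC and length (0.0503), whereas H2-Q4, H2-Q6 and Mr1 held without each library. The Q region genes are near copies of one another, so their values are uncertain as to which gene the reads came from, and shared reads may have been dropped. H2-Q9 had a count of 0 in all 6 libraries and H2-Q7 had counts of 0 to 4.

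Regulators of the pathway passed in both directions, and 18 of the tested ones did not pass. Of 22 tested genes of interferon reception, signalling and class I transcription, 2 rose and 2 fell, against 5.96% and 6.45% of all tested genes. Their median log2 fold change was 0.041. DESeq2 called 7 (1217 higher and 1389 lower over all genes) and limma voom 9 (906 and 914). Without WT 27, 4 rose, and without either WT 29 or cKO 8, 1 rose and 1 fell. Rfx5, the DNA-binding subunit of the RFX complex that works with NLRC5, rose from 24.3 ± 0.966 to 31.8 ± 0.267 CPM (log2 0.39 ± 0.06, adjusted p = 0.00421). Irf2, an interferon regulatory factor, rose from 13.2 ± 0.62 to 16.6 ± 0.651 CPM (log2 0.33 ± 0.08, adjusted p = 0.0209). The call did not hold without WT 27, WT 29 or cKO 8 (0.069 to 0.078). Socs1, an inhibitor of the Janus kinases below interferon receptors, fell from 22.6 ± 1.71 to 14.6 ± 1.24 CPM (log2 -0.62 ± 0.09, adjusted p = 0.00267). Rela, an NF-kappaB subunit, fell slightly (log2 -0.21 ± 0.06, adjusted p = 0.0338), but not with upper-quartile scaling (0.0547), with the GC and length offset (0.25) or when any library but cKO 37 was left out (0.055 to 0.101).

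Irf1, an activator of class I genes that was named after its values were seen, did not pass. Its level was 96.6, 62 and 79 CPM in WT 14, WT 27 and WT 29 and 55.3, 43 and 44.3 CPM in cKO 8, cKO 10 and cKO 37. All cKO libraries were below all WT libraries (log2 -0.74 ± 0.18, adjusted p = 0.0541), and it passed, lower, with DESeq2 (7.39e-06), limma voom (0.0209), a mean CPM filter (0.0464) and without WT 27 (0.0101). The adjusted p of Irf1 was 0.053 or higher in the other fits. Ifng, the gene of interferon gamma, was too scarce to test, with counts of 0 to 8 per library.

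Other interferon-induced genes gave a similar order of libraries. Of 22 such genes, 22 had a log2 fold change above 0, with a median of 0.955, yet edgeR called 0, against 12.4% of all tested genes. An unadjusted p under 0.05 was found for 6, against 4675 of all 16089 tested genes. DESeq2 called 4 (1217 higher and 1389 lower over all genes) and limma voom 10 (906 and 914). Without WT 27, edgeR called 12 of them (558 higher and 611 lower over all genes). Without either cKO 10 (592 and 741) or cKO 37 (932 and 1053) it called 1. The 4 with the smallest p were the GTPase genes Iigp1 (1.17 ± 0.30, adjusted p = 0.0689), Gbp7 (0.93 ± 0.25, adjusted p = 0.071), Irgm2 (0.99 ± 0.29, adjusted p = 0.0835) and Igtp (0.87 ± 0.30, adjusted p = 0.117). These 4 passed without WT 27, with adjusted p from 0.00436 to 0.0358.

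WT 27 and cKO 37 shaped this spread within the groups. WT 27 had the highest WT value in 9 of the 10 class I presentation genes, and it was above cKO 10 in 3 of them. WT 14 had the lowest value of all 6 libraries in 9 of the 10, and cKO 37 the highest in 8. Expressed as the mean standardised log2 CPM of the 10 genes, the libraries stood at -1.22, 0.23 and -0.80 for WT 14, WT 27 and WT 29 and at 0.49, 0.21 and 1.09 for cKO 8, cKO 10 and cKO 37. The interferon-induced genes gave -1.21, 0.26, -1.05, 0.67, 0.12 and 1.22 in the same order, so in both lists WT 27 was level with cKO 10.

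**Figure D4:**
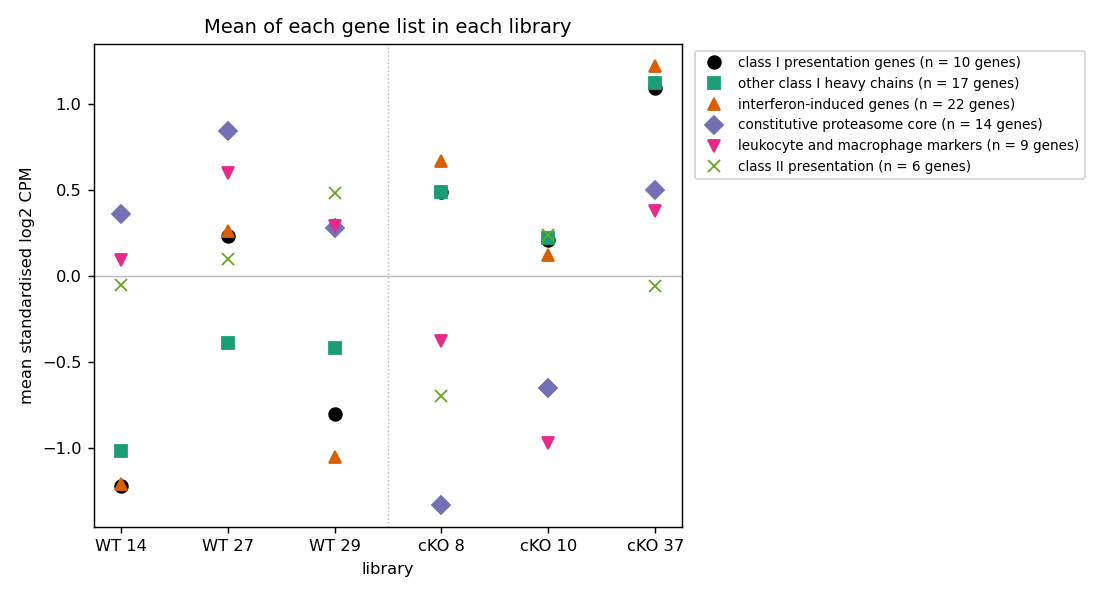
Mean standardised log2 CPM (vertical axis, each gene scaled over the 6 libraries) of 6 gene lists in each library (horizontal axis), WT left and cKO right of the dotted line. Class I presentation genes (black circles) and interferon-induced genes (orange triangles) both lie lowest in WT 14 (-1.22 and -1.21) and highest in cKO 37 (1.09 and 1.22), with WT 27 near cKO 10.

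An average log2 CPM, as computed by edgeR, of 1 or more was found for 12480 other genes. The 5 of them most like the mean profile of the 10 genes over the 6 libraries were Ifi204 (Pearson r = 0.998), Irf7 (0.996), Gbp3 (0.996), D14Ertd668e (0.996) and Slfn2 (0.995). These r values describe 6 points that share their group difference, and they are the highest of many. Irf7, a factor of the interferon response, was at 10.2, 29 and 14.7 CPM in WT 14, WT 27 and WT 29 and at 32.1, 29.5 and 47.1 CPM in cKO 8, cKO 10 and cKO 37. Of the 5 genes, 0 passed the edgeR test themselves (adjusted p = 0.0814 to 0.279).

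Class II genes, which mark cells specialised in presenting antigen, did not pass. Of 6 tested class II presentation genes, edgeR, DESeq2 and limma voom each called 0, against 12.4% of all tested genes with edgeR. An unadjusted p under 0.05 was found for 0, against 4675 of all 16089 tested genes. The summed level of the 9 class II genes with an entry was 35.1 to 36.7 CPM in WT and 32.2 to 36.5 CPM in cKO. The invariant chain gene Cd74, for example, was at 13.3 ± 0.396 and 12.3 ± 0.911 CPM. Leukocyte and macrophage markers were mixed, though their sum was lower in cKO. The 9 genes together gave 425 to 517 CPM in WT and 355 to 388 CPM in cKO. Of the 9, 2 fell, against 6.45% of all tested genes. These were the macrophage receptor gene Csf1r (log2 -0.43 ± 0.10, adjusted p = 0.0191) and the integrin gene Itgam (log2 -0.28 ± 0.07, adjusted p = 0.0264). Csf1r alone made up 204 to 264 CPM of the sum in WT and 161 to 172 CPM in cKO. Fcgr1 (1.26-fold), Cd14 (1.08-fold) and Lyz2 (1.03-fold) had higher means in cKO, and these 3, Ptprc, Emr1 and Mrc1 overlapped between the groups. Csf1r was lost without cKO 8 (0.085) or cKO 37 (0.0654), and Itgam without WT 14, WT 27, cKO 8 or cKO 10 (0.0528 to 0.106). Osteoclast markers, also of myeloid origin, summed to 2900 to 4150 CPM in WT and 2350 to 2970 CPM in cKO. All 5 had lower means in cKO (median fold 0.679), 3 of them with no overlap, which was the case for 17.4% of all tested genes. Acp5 passed (log2 -0.56 ± 0.12, adjusted p = 0.0172), but not without cKO 8 (0.0743) or cKO 37 (0.0544).

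Among T and NK, B lineage, neutrophil, dendritic and endothelial markers, 3, 3, 6, 6 and 5 genes were tested. In each list edgeR, DESeq2 and limma voom called 0, against 12.4% of all tested genes with edgeR. An unadjusted p under 0.05 was found for 0, 0, 1, 0 and 1 genes, against 4675 of all 16089. At these shares, lists this short can hold 0 calls without differing from the rest. The 10 T and NK cell markers summed to 5.3 to 6.7 CPM in WT and 5.64 to 6.73 CPM in cKO, most of it Cd4, and Cd3e had counts of 0 to 2. The 6 B lineage markers summed to 1.72 to 2 CPM in WT and 0.967 to 1.72 CPM in cKO, and the 7 neutrophil markers to 1.76 to 2.54 CPM and 0.741 to 2 CPM. Dendritic cell markers (6 genes) summed to 10.9 to 11.6 CPM in WT and 10.8 to 11.9 CPM in cKO, and endothelial markers (5 genes) to 462 to 512 CPM and 473 to 583 CPM. The 4 neural markers were mixed. Tubb3, a neuronal tubulin gene, fell from 9.79 ± 1.44 to 5.75 ± 1.16 CPM (log2 -0.77 ± 0.16, adjusted p = 0.0131, and 0.0582 without WT 29). Stmn2 was 1.21-fold higher in cKO with no overlap (adjusted p = 0.224). Snap25 (1.63-fold) and Gfap (0.812-fold) overlapped between the groups. No marker of these lists was at 0 in all 6 libraries. The part of the cell mixture in the class I values was not tested beyond these levels.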

How the data were processed

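RNA-seq of 6 calvaria libraries, 3 WT and 3 cKO, was used. The deposited count values are read counts per gene, and the authors' deposited RPKM columns served only as a check. Per the submitters' processing notes, bcl2fastq, TopHat2 2.0.6 and HTSeq were used with mm10; neither the annotation nor the strand setting is stated, so sense and antisense reads cannot be told apart. No deposited count is odd (0 found), so the counted unit adds 2. Of 23358 entries, 69 share an identifier and were kept apart by position.

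The tests ran in edgeR 4.0.16 under R 4.3.3: filterByExpr with a minimum count of 10 left 16089 genes, TMM factors were 0.9519 to 1.072, and groups were compared with the robust quasi-likelihood F test, Benjamini-Hochberg adjusted over all tested genes (threshold 0.05). The biological coefficient of variation was 11.5%. SE and intervals come from that fit. Steps were tested on simulated counts. Levels between genes use CPM per kilobase of the deposited length. Standardised profiles of the gene lists use log2(CPM + 0.1). The search for similar profiles used edgeR's own log2 CPM, which adds a prior count. Exact permutation tests used scipy 1.17.1.

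The 10 genes and the lists were chosen with earlier results of these data known. Named beside the 10 genes are Ezh2, Psmb5, Psmb6 and Psmb7. Up to 4 genes of smallest p in each pathway list and the 5 most similar profiles are named as well. Others are named where the text says so, and marker genes were named after their values were seen. Canx, Tapbpl and the untested genes H2-Q7, H2-Q9 and Ifng were named outside this rule. Alternatives were RLE and upper-quartile scaling, no filter, a mean CPM of at least 1, DESeq2 1.42.0, limma voom (limma 3.58.1), halved counts, removal of Rn45s (6.1% to 12% of the counts), omission of each library, an adjusted p threshold of 0.1 and glmTreat against 1.2-fold. An offset for GC content (known for 90.1% of tested genes) and length was added after seeing the data. A gene of the regulator list is counted there but not reported here by itself.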

Additional observations from a re-analysis of the deposited data

How the results depend on the processing

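Scaling, filter, tool and count unit left the 5 called class I presentation genes past the threshold in all 9 such fits. The count of risen genes was 5 in 7 of them and 6 with DESeq2 (Psmb8 added) and with the GC and length offset (Tap2 added). An adjusted p threshold of 0.1 gave 6 of the 10 (3277 genes in all, 1593 higher and 1684 lower). Tested against a fold change of 1.2 with glmTreat, 0 of the 10 passed and 112 genes in all did (62 higher, 50 lower); by unadjusted p under 0.05 in that test there were 6, and the adjusted p of Nlrc5 was 0.103. Leaving out 1 library gave 1 to 8 risen class I presentation genes and 586 to 1985 called genes in all (291 to 932 higher, 295 to 1053 lower), with B2m as the 1 left without cKO 8. Median log2 fold changes of all tested genes stayed within 0.1 of the main value in every fit. No paired analysis was possible because the library numbers of the WT and cKO groups are not shared. With 3 libraries per group, differences as small as that of Tap2 are at the limit of what these data resolve, and for Psmb9 and H2-Q6 low counts add to this.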
